A study of Mus musculus with 5 samples.

Results

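Tbl2, Nat9, Bag1, Gabarapl1, 1810032O08Rik and Carm1, endogenous transcripts that have served as reporters of nonsense-mediated mRNA decay (NMD) in mammalian cells, were examined in Upf1-depleted mouse neuroblastoma cells. They were chosen by name, as the rows of the deposited count table that carry these 6 symbols, and all 6 were found once each among 55573 genes. The cells were Neuro-2A (N2A), a mouse neuroblastoma line grown in serum, and the cells of every sample were transfected with 60 pmol of siRNA. The siCtl group (2 libraries, replicates 1 and 3) received the commercial Silencer Negative Control #1, and the siUpf1 group (3 libraries, replicates 1, 2 and 3) a single siRNA against Upf1, so an effect of that siRNA on other mRNAs and an effect of the loss of UPF1 cannot be told apart. No genotype differed between the groups. The study describes the protein blots of these siRNA treatments as independent experiments, and neither it nor the labels tie each library to a separate culture, so p-values measure the spread between these libraries, which may be technical in part.

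NMD removes mRNAs on which translation stops too early. The RNA helicase UPF1 is recruited to the terminating ribosome, is phosphorylated by SMG1 and brings in decay factors such as SMG5 and SMG6. The features known to mark a transcript are an exon junction well downstream of its stop codon, a translated open reading frame upstream of the main one, or a long 3′ untranslated region (3′ UTR). Transcripts that NMD normally removes are used as reporters because their level rises when the pathway is blocked.

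The siRNA is shown first because the whole comparison rests on it. The sequence given in the labels was found in both annotated Upf1 transcripts and in no transcript of another gene (GENCODE M21), and neither it nor its reverse complement was found in any transcript of the 6 reporters. Capitals mark bases 2 to 8 from the 5′ end, the seed of each strand.
Upf1 siRNA as labelled: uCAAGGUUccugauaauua
its reverse complement: uAAUUAUCaggaaccuuga

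The stop codons of Tbl2 and Carm1 are shown next because these are the reporters with annotated NMD transcripts. Each line gives the stop codon in capitals with 12 nt on either side, from the GENCODE M21 transcript sequences.
Tbl2-204, full-length coding transcript: gccctgaagaagTGActctggctccag
Tbl2-201, annotated NMD transcript: gacggcctccagTGAcacaactgtcct
Tbl2-202, annotated NMD transcript: ctacgtggtcggTGActtttcctggga
Tbl2-205, annotated NMD transcript: agccagcccgtcTAAagaaaacgaacc
Carm1-201, full-length coding transcript: cactatgggagtTAGgtgcctccagcc
Carm1-204, annotated NMD transcript: agagaggttaagTGActttgctccaag

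Tbl2 (chromosome 5, 135149657 to 135165760, plus strand, GRCm38) had 3 annotated NMD transcripts among 5. In Tbl2-204 the stop codon (135159680 to 135159682) lies in the last of 7 exons. Tbl2-201 lacks exon 4 of that transcript, of 152 nt, and reaches a TGA in its own exon 4 (135157557 to 135157559), with 2 exon junctions after it and the last of them 252 nt downstream. Tbl2-202 carries an extra exon of 150 nt with no base in the exons of Tbl2-204. Its TGA lies inside that exon (135150061 to 135150063), with 4 junctions after it. The TAA of Tbl2-205 is split between exons 1 and 2 (135149864 to 135152941), with 1 junction after it, 115 nt downstream.

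Carm1 (chromosome 9, 21546894 to 21592623, plus strand) had 1 annotated NMD transcript among 10. Carm1-204 carries an extra exon of 200 nt, its exon 4 of 17, and that exon holds the TGA (21574924 to 21574926). A total of 13 junctions follow it, the last 1398 nt downstream. In Carm1-201 the TAG (21588186 to 21588188) is in the last of 16 exons.

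The other 4 reporters had no transcript annotated as an NMD substrate. In Gabarapl1-204, a coding transcript of Gabarapl1 (chromosome 6, 129533160 to 129542346, plus strand), 1 junction lies 38 nt after the stop codon, and in Gabarapl1-201 there is none. Nat9 (chromosome 11, 115182832 to 115187859, minus strand) and Bag1 (chromosome 4, 40936398 to 40948294, minus strand) had their stop codons in the last exon of every complete coding transcript. The representative Bag1 transcript, Bag1-203, holds 2 ATGs upstream of its start codon, shown here with 9 nt on either side.
Bag1-203, ATG 491 nt upstream of the start codon: ggcgagtagATGgggcggaac
Bag1-203, ATG 242 nt upstream of the start codon: ccagcgggcATGaccgatcca

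Both open an upstream reading frame that ends before the main start codon, after 5 and 16 codons, and neither is in frame with the main reading frame. In Bag1-201 and Bag1-204 the coding sequence is annotated from a CTG codon instead and is longer, 1065 nt against 657 nt. Nat9-203 and Gabarapl1-201 had 1 upstream ATG each, whose reading frames ended after 47 and 43 codons, both before the main start codon. The representatives of Tbl2 and Carm1 had none.

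1810032O08Rik (chromosome 11, 116671660 to 116675799, plus strand) is not an mRNA in the annotation. The count table types it as a lncRNA, none of its 7 transcripts has a coding sequence, and RefSeq lists the symbol as a synonym of Snhg16, a small nucleolar RNA (snoRNA) host gene. The snoRNA genes Snord1a, Snord1b and Snord1c lie within it on the same strand.

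**Figure D1:**
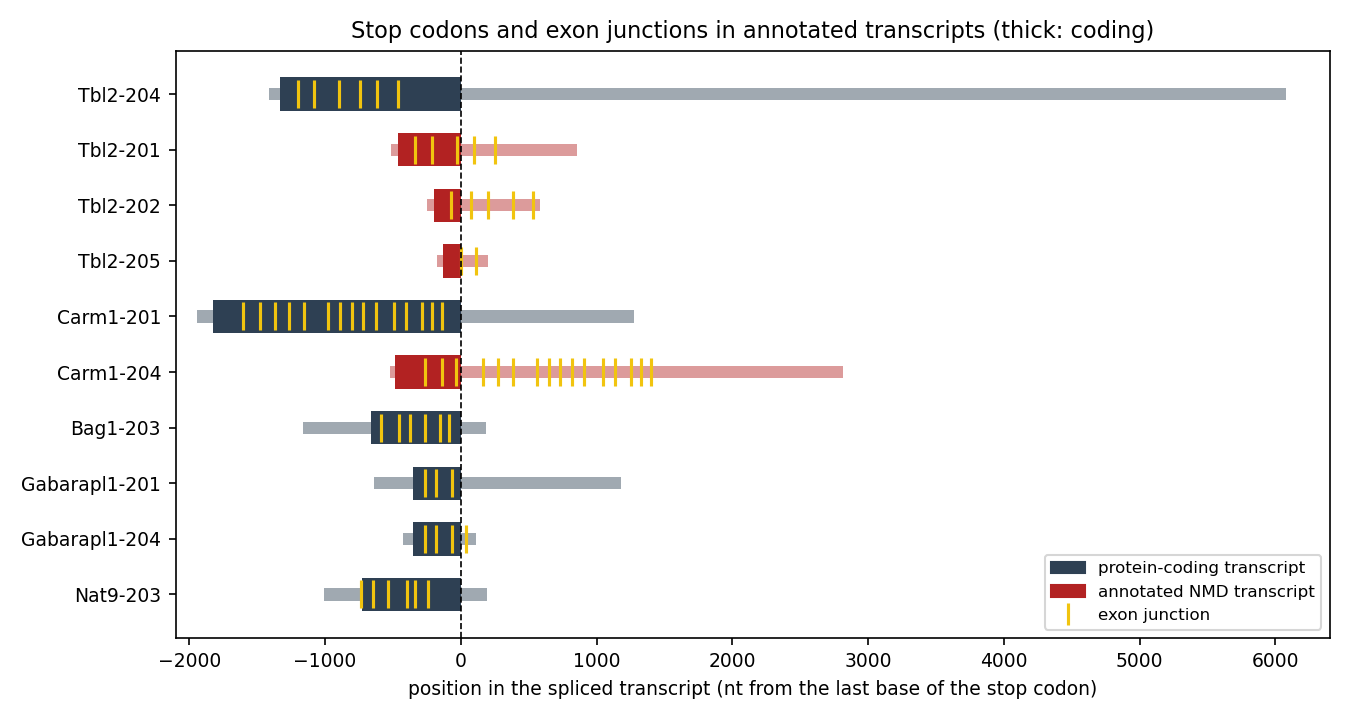
Annotated transcripts of the 5 coding reporters, drawn 5′ to 3′ in nt from the last base of the stop codon (x axis), with coding sequence thick, untranslated parts thin and exon junctions as yellow ticks. Junctions follow the stop codon in the 4 annotated NMD transcripts (red) and, 38 nt away, in Gabarapl1-204.

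Libraries held 20402205 to 27717594 assigned reads, and a count is given below as a normalised read count, that is, divided by DESeq2's size factor of its library. Upf1, the siRNA target, stood at 5230 ± 18.1 normalised counts without the knockdown (SD over 2 siCtl libraries) and at 2449 ± 46.6 with it (SD over 3 siUpf1 libraries). Of 14 neuroblastoma and neuronal markers, 13 averaged at least 100 normalised counts, Prph and Tubb3 among them, and Nefl stood at 3.04 in siCtl and 2.62 in siUpf1. Of the 13 that were tested, 7 were called higher and 2 lower in siUpf1, beside 21.4% and 22.3% of all genes tested. Their summed level was 69200 to 70400 in siCtl and 75400 to 80400 in siUpf1. Of 12 markers of other cell types, 3 averaged at least 100 normalised counts (Pdgfrb, Mbp and Pecam1), 5 averaged under 10 (Mog had no read) and the sum of all 12 was 1070 to 1100 in siCtl and 1010 to 1060 in siUpf1. Of the 7 that were tested, 1 was called lower, the endothelial marker Pecam1, from 208 ± 9.12 to 121 ± 5.96 normalised counts, and none higher. The part of these marker levels in the results was not tested. The counts come from whole cultures, where a change in every cell and a change in some of the cells cannot be told apart.

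Of the 6 reporters, 3 rose on Upf1 knockdown (Tbl2, Bag1 and Carm1), 2 fell (Gabarapl1 and 1810032O08Rik) and 1, Nat9, was not called, by DESeq2's Wald test with Benjamini-Hochberg adjustment over 15581 genes (adjusted p under 0.05). Over all genes tested, 21.4% were called higher and 22.3% lower, 43.7% in all. The groups did not overlap for 5 of the 6 reporters and for 68.5% of all genes tested. The median log2 fold change of the 6 was 0.05, and that of all genes tested was -0.001. The changes of the reporters were modest, from a siUpf1 level of 136% of the siCtl level down to 80%. Tbl2 lay at the 82.2 percentile of the log2 fold changes of all genes tested and Gabarapl1 and 1810032O08Rik both at the 21.3 percentile.

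**Figure D2:**
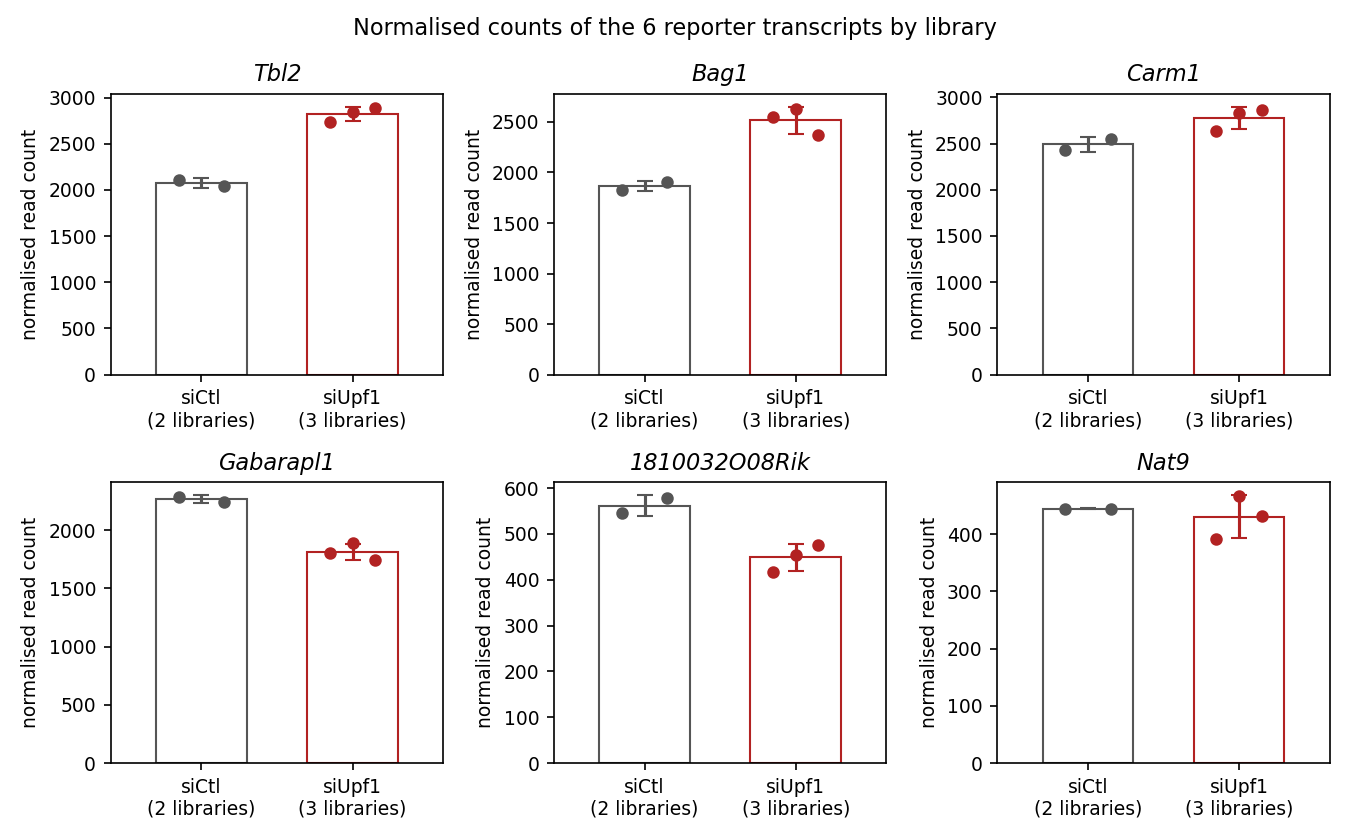
Normalised read counts (y axis, from 0) of each reporter in the siCtl (grey) and siUpf1 (red) libraries. Points are libraries, bars are group means and error bars SDs. Only for Nat9 do the groups overlap, with 2 siUpf1 libraries below and 1 above the siCtl libraries at 443 and 444.

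Tbl2, which encodes a WD40-repeat protein of the endoplasmic reticulum membrane, had the largest increase. Its normalised counts were 2111 and 2040 in siCtl replicates 1 and 3, and 2738, 2845 and 2886 in siUpf1 replicates 1, 2 and 3. All 3 siUpf1 libraries lay above both siCtl libraries, and the gap between the groups was wider than the spread within either. The mean rose from 2075 ± 50.5 (SD, n = 2) to 2823 ± 76.4 (SD, n = 3), by 0.44 on the log2 scale (SE 0.058, DESeq2 Wald test, adjusted p = 3.15e-13). Each siUpf1 library taken alone was 0.40, 0.46 and 0.48 above the siCtl mean on the log2 scale. The change was between 0.40 and 0.47 in the 12 alternatives and was called in each.

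Bag1, a co-chaperone that releases nucleotide from HSP70 proteins, rose by nearly as much. It had 1828 and 1902 normalised counts in siCtl and 2551, 2628 and 2368 in siUpf1, again without overlap. The lowest siUpf1 library, replicate 3, was also the one that differed most from the other two. The mean rose from 1865 ± 52.2 to 2516 ± 133, by 0.43 on the log2 scale (SE 0.065, DESeq2 Wald test, adjusted p = 2.51e-10). Alternatives gave 0.40 to 0.52, the highest with the per-library length and GC trends taken out, and kept the call in each.

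Carm1 encodes an arginine methyltransferase (PRMT4) that acts on histone H3 and on transcriptional co-activators. Its increase was small. The siCtl libraries had 2432 and 2550 normalised counts and the siUpf1 libraries 2634, 2830 and 2858, so that the nearest libraries of the 2 groups differed by less than the siCtl libraries did from each other. The mean rose from 2491 ± 83.6 to 2774 ± 122, to 111% of the siCtl level (log2 fold change 0.15, 95% interval 0.04 to 0.27, DESeq2 adjusted p = 0.026). This call depended on which libraries were used. It was kept without siUpf1 replicate 1 (DESeq2 adjusted p = 0.0105). It was lost without siCtl replicate 1 (DESeq2 adjusted p = 0.299), siCtl replicate 3 (0.0795), siUpf1 replicate 2 (0.0916) or siUpf1 replicate 3 (0.14), and the log2 fold change was positive in each, at 0.12 to 0.19. Yipf2 lies opposite to the end of Carm1, with 1025 nt of exon shared between the strands, and had 66.0 normalised counts in siCtl and 32 in siUpf1, few beside those of Carm1. Counting was by strand.

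Gabarapl1, one of the ubiquitin-like ATG8 proteins that are attached to autophagosome membranes, moved the other way. It had 2288 and 2240 normalised counts in siCtl and 1804, 1888 and 1745 in siUpf1. Every siUpf1 library lay below both siCtl libraries, with a gap several times the siCtl spread. The mean fell from 2264 ± 34.4 (SD, n = 2) to 1812 ± 71.5 (SD, n = 3), to 80% of the siCtl level, with -0.32 as the log2 fold change (SE 0.063, DESeq2 Wald test, adjusted p = 1.76e-06). It was called lower in all 12 alternatives, at -0.35 to -0.26. Gm44243, a gene of unknown coding status on the same strand in an intron of Gabarapl1, had only 17.5 and 11.9 normalised counts in the groups.

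1810032O08Rik, the snoRNA host, fell to a like extent but was measured less precisely. It had 545 and 577 normalised counts in siCtl and 418, 453 and 476 in siUpf1, with no overlap. Its mean fell from 561 ± 22.8 to 449 ± 29.2, again with -0.32 as the log2 fold change (SE 0.112, DESeq2 Wald test, adjusted p = 0.011). The call was lost without siCtl replicate 1 (DESeq2 adjusted p = 0.0591), siCtl replicate 3 (0.183) or siUpf1 replicate 1 (0.0865), with log2 fold changes between -0.37 and -0.27 when a library was left out.

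Nat9, a member of the GNAT family of N-acetyltransferases, was not called. It had 444 and 443 normalised counts in siCtl and 392, 467 and 431 in siUpf1. The siCtl libraries nearly coincided, while the siUpf1 libraries fell on both sides of them. The means were 444 ± 0.735 and 430 ± 37.4 (-0.05 on the log2 scale, SE 0.12, DESeq2 Wald test, adjusted p = 0.785). The 95% interval of the log2 fold change, -0.29 to 0.19, contains the fitted change of Carm1 and excludes those of Tbl2, Bag1, Gabarapl1 and 1810032O08Rik. It overlaps the intervals of Gabarapl1 (-0.45 to -0.20) and 1810032O08Rik (-0.54 to -0.10), and differences between genes were not tested. The log2 fold change of Nat9 was positive, at 0.01, without siUpf1 replicate 1 and after removal of the length and GC trend.

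**Figure D3:**
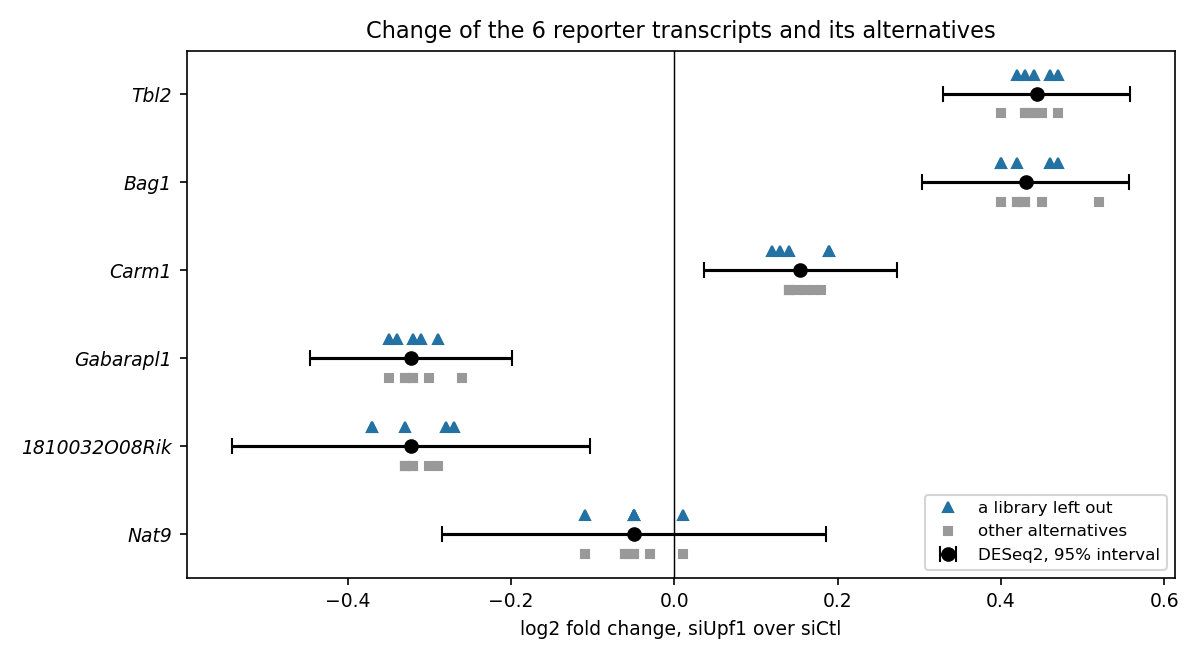
Log2 fold change of siUpf1 over siCtl (x axis) for each reporter. Black points with bars are DESeq2 estimates with 95% intervals, triangles are fits without a library and squares are the other alternatives. Tbl2 and Bag1 stay at 0.40 or above, Gabarapl1 and 1810032O08Rik at -0.26 or below, and Nat9 lies on both sides of 0.

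Levels were compared between the reporters per length, as normalised counts per kb of annotated exon. In siCtl the order was Bag1 (1383 ± 38.7 per kb), Gabarapl1 (1125 ± 17.1), Carm1 (513 ± 17.2), Tbl2 (264 ± 6.43), Nat9 (215 ± 0.356) and 1810032O08Rik (202 ± 8.23; SD, n = 2 for each). Nat9 and 1810032O08Rik were the closest neighbours, with siCtl libraries at 215 and 215 against 196 and 208 per kb, a gap smaller than the spread of 1810032O08Rik. The other neighbours lay further apart than their spread. The order was the same in siUpf1, and the distance between Bag1 (1865 ± 98.8 per kb) and Gabarapl1 (900 ± 35.5) was wider there. The exon length of Tbl2, 7855 nt, includes a 3′ UTR of 6078 nt, so its level per kb would be higher if N2A cells used a shorter 3′ end. Exon length here joins all annotated transcripts of a gene. For Nat9 it is 2066 nt, against 1204 nt for the representative transcript Nat9-203. For 1810032O08Rik it is 2776 nt, while its annotated transcripts have 520 to 1988 nt. The order of Tbl2, Nat9 and 1810032O08Rik therefore depends on the length used.

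The reporters differed in the sequence features that NMD is known to read. Among the coding genes tested with a complete representative transcript (12811 genes, median 3′ UTR 982 nt), Tbl2 had a 3′ UTR at the 98.2 percentile of length, Carm1 (1279 nt) and Gabarapl1 (1179 nt) were near the middle, and Nat9 (194 nt) and Bag1 (188 nt) were at the 12.5 and 12.1 percentiles. Bag1 had the longest 5′ UTR of the 5 coding reporters, 500 nt, at the 90.5 percentile. The 2 reporters with the largest increases, Tbl2 and Bag1, therefore had the longest and the shortest 3′ UTRs of the 5.

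These features are given with the calls of all coding genes tested that share them, as a description. Of genes with a 3′ UTR within 25% of the length of that of Tbl2 (482 genes), 42.5% were called higher and 20.5% lower, against 24.2% and 26.3% of all 12811. Of genes with an annotated NMD transcript, as Tbl2 and Carm1 have, 23.0% were called higher and 28.9% lower, and of those without one 24.7% and 25.3%. Of genes with an upstream ATG in the representative transcript, as Bag1, Nat9 and Gabarapl1 have, 27.3% were called higher and 24.2% lower, and of those without one 20.9% and 28.7%.

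Sites complementary to the seeds of the Upf1 siRNA were counted on the mRNA strand of the representative 3′ UTRs. The reverse-complement strand is the one that can pair with the Upf1 mRNA, and the 7-mer GATAATT is complementary to its seed. GATAATT was in none of the 5 coding reporters' 3′ UTRs and in 7.61% of those of all coding genes tested. Of coding genes tested with GATAATT, 27.9% were called higher and 27.2% lower, against 24.2% and 26.3% of all 12811. The 7-mer AACCTTG, complementary to the seed of the strand printed in the labels, was found once, in the long 3′ UTR of Tbl2. It was in 9.78% of all 3′ UTRs and in 35.3% of those within 25% of the length of that of Tbl2. Of all coding genes tested with AACCTTG, 21.7% were called higher and 36.9% lower, and of the 170 that also had a 3′ UTR near the length of that of Tbl2, 31.8% and 27.1%.

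Relatives of 3 reporters were taken from the same fit. Of the other 4 ATG8 family genes, Gabarap fell like Gabarapl1, from 2863 ± 19.4 to 2178 ± 84.5 normalised counts, by -0.40 on the log2 scale (DESeq2 adjusted p = 1.56e-10), while Map1lc3a rose (0.26, DESeq2 adjusted p = 0.0167). Gabarapl2 (-0.01) and Map1lc3b (0.02) were not called. The BAG domain genes beside Bag1 were as mixed. Bag4 (log2 fold change 0.74) and Bag5 (0.53) rose, Bag3, a stress-induced member, fell (-0.31), and Bag2 (0.10) and Bag6 (-0.02) were not called. Among the other arginine methyltransferase genes none was called higher. Of the 7 tested, Prmt5 (-0.18) and Prmt7 (-0.25) fell and 5 were not called, with log2 fold changes between -0.09 and 0.16. The highest, that of Prmt9 (0.16, SE 0.103, DESeq2 adjusted p = 0.199), was no smaller than the 0.15 of Carm1 but less precisely measured. Differences between relatives were not tested.

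Other transcripts used as endogenous NMD readouts formed a list of 23 genes, all tested. None was called higher and 18 were called lower, beside 21.4% and 22.3% of all genes tested. The median log2 fold change was -0.49, with a range from -1.66 (Upp1, uridine phosphorylase) to 0.10 (Ptbp2, a splicing repressor, not called). Among the stress-induced genes of the list, Atf4, a translationally controlled transcription factor with upstream reading frames, fell from 31595 ± 642 to 25192 ± 933 normalised counts, by -0.33 on the log2 scale. Its target Ddit3 (-0.50), Atf3 (-0.73) and Gadd45a (-0.49), a growth-arrest gene, fell too, and Gadd45b (-0.13) was not called. Of the splicing-factor genes with known poison exons, Srsf2 (-0.26), Srsf3 (-0.16), Srsf7 (-0.43) and Tra2b (-0.49) fell and Hnrnpl (-0.08) was not called. Arc (-0.50), a neuronal mRNA with introns in its 3′ UTR, fell as well.

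The snoRNA hosts of that list were Gas5 (log2 fold change -0.69), Snhg1 (-0.59), Snhg12 (-0.90) and Zfas1 (-0.95), all called lower. Their siUpf1 means ran from 1729 (Snhg12) to 4286 (Gas5) normalised counts, above the 449 of 1810032O08Rik. 1810032O08Rik thus fell with them and by less, although the difference was not tested. In the 12 alternatives 16 to 19 genes of the list were called lower and 0 higher. These are counts of whole genes, and an NMD-sensitive splice form is not separated from the rest of a gene's transcripts, for the readouts as for the 6 reporters.

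The NMD machinery itself was mixed. Of 21 genes for NMD and exon junction complex factors, 6 were called higher, 9 lower (Upf1 included) and 6 neither, with a median log2 fold change of -0.18. The shares over all genes tested were 21.4% higher and 22.3% lower. Smg6, the endonuclease, rose from 1648 ± 32.7 to 2651 ± 62.6 normalised counts, by 0.69 on the log2 scale, and Smg1 (0.52), Casc3 (0.48), Ncbp1 (0.38) and Smg5 (0.26) rose too. Nbas (-0.48), Rbm8a (-0.47), an exon junction core protein, Upf3a (-0.32), the release factor Etf1 (-0.26) and Gspt1 (-0.18) fell. Upf2, whose product bridges UPF1 and the exon junction complex, had a log2 fold change of 0.33 with a wide SE of 0.189. It was not called by DESeq2 (DESeq2 adjusted p = 0.15), whereas edgeR's quasi-likelihood test called it higher (adjusted p = 9.91e-08). In simulated data 100 of 26312 genes were changed by 0.5 and 100 by 1 on the log2 scale. There 15% of edgeR's calls were false, against 3.55% of DESeq2's. In the real data DESeq2 called 43.7% of genes tested, so these shares cannot be applied to the Upf2 call.

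**Figure D4:**
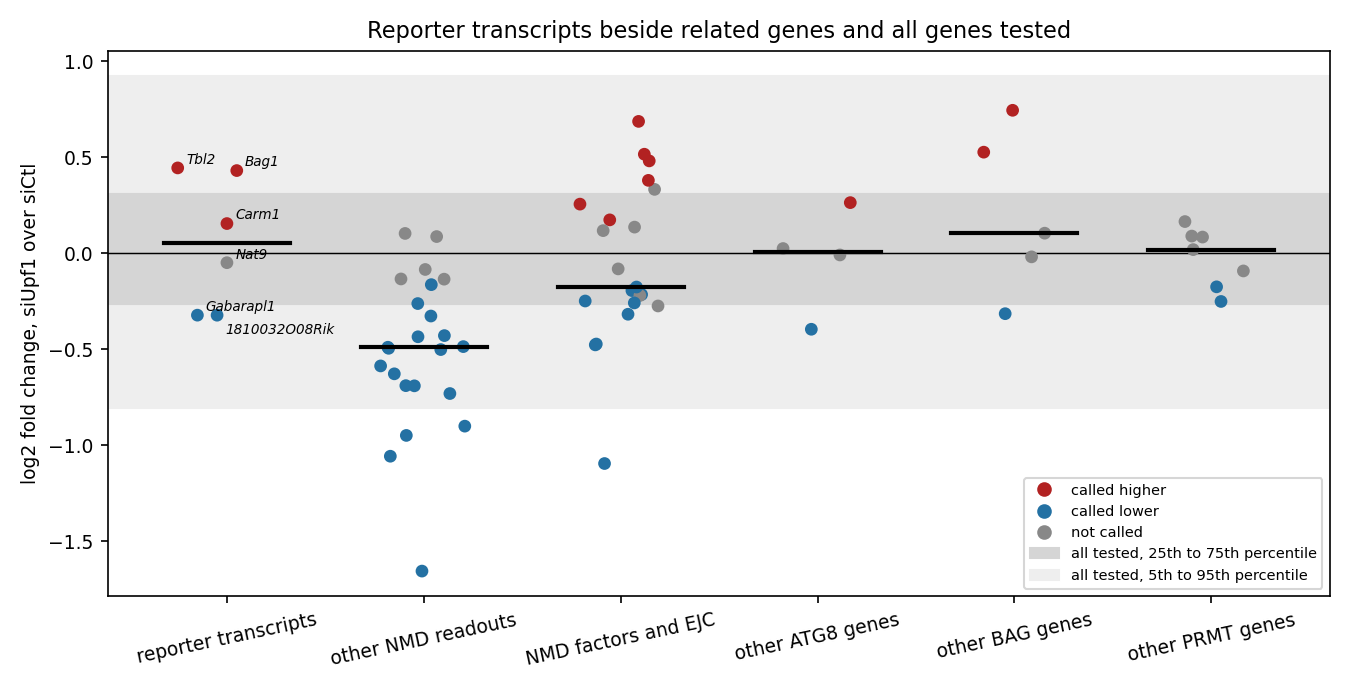
Log2 fold change of siUpf1 over siCtl (y axis) for the 6 reporters and 5 further lists, with 1 point a gene, coloured by its DESeq2 call, and a bar at each list's median. Grey bands hold the 25th to 75th (dark) and 5th to 95th (light) percentiles of all 15581 genes tested. The other readouts centre at -0.49 with none called higher, while the reporters lie between -0.32 and 0.44.

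The genes whose level over the 5 libraries was most like that of each reporter were found among 10957 genes that averaged 100 normalised counts or more, by the distance between centred log2 values. They were Ptpra and Zfp687 for Tbl2, Nt5m and Kcnma1 for Bag1, Pole and Fam234b for Carm1, Rpusd2 and Por for Gabarapl1, Eno1b and Usp54 for 1810032O08Rik, and Nsun5 and Cenpa for Nat9. Distances were 0.0238 (Ptpra) to 0.0547 (Usp54) log2 units. With 5 libraries in 2 groups such likeness is mostly a like fold change and a like scatter, and the reporters themselves were not candidates.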

How the data were processed

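Polyadenylated RNA from 5 N2A samples was sequenced with a strand-specific kit as single-end reads. The table deposited by the authors holds unnormalised whole counts of reads for each gene, made by trimming with fastp, mapping to GRCm38.p6 with STAR (version 2.7.0f in the submitters' processing notes) and counting exon reads on the reverse strand with featureCounts (Subread 1.6.4) over a GENCODE annotation. Samples were grouped by their titles. Gene positions and transcripts came from GENCODE M21 (GRCm38), which held 99.8% of the gene identifiers. Counts were fitted with DESeq2 1.42.0 (R 4.3.3; design with the siRNA group alone, default size factors, independent filtering at 0.05), the tool of the study's methods, over all genes with a read (28121). Of these, 12540 had no adjusted p. The representative transcript of a gene was its principal coding transcript with an ATG start. The 95% intervals are Wald intervals.

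Alternatives were edgeR 4.0.16 (quasi-likelihood), TMM or total-count size factors, a minimum of 10 counts in 2 libraries, no filter, the replicate number as a block, removal of the length and GC trend, and each library left out. Replicate numbers were not used as pairs in the main fit, and whether they mark paired cultures could not be told. Scripts were tested on simulated data with few changed genes (100 each at log2 sizes of 0.5 and 1, among 26312). There 3.55% of DESeq2's calls and 15% of edgeR's were false, shares that need not hold where many genes change. No permutation test was made for single genes, since its exact p cannot fall under 0.1 here. Genes named are the 6 reporters, Upf1, members of the lists, the 2 most similar genes of each reporter and, chosen after values were seen, genes that overlap a reporter (Yipf2, Gm44243 and the snoRNA genes). The 6 reporters and all lists were chosen with earlier results of these data known. Near-identical copies and PCR duplicates cannot be recognised in gene counts.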

Additional observations from a re-analysis of the deposited data

How the results depend on the processing

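Across the 12 alternatives Tbl2, Bag1 and Gabarapl1 kept their direction and their call. With the replicate number as a block (replicate block), 1810032O08Rik (log2 fold change -0.33, DESeq2 adjusted p = 0.167, range 0.000172 to 0.183 over its alternatives) and Carm1 (0.14, DESeq2 adjusted p = 0.324, range 0.0047 to 0.324) were not called, 1 reporter was called lower, 1964 genes were higher and 1971 lower, and 5 NMD factors were lower. The lowest adjusted p of 1810032O08Rik, 0.000172, came from edgeR's quasi-likelihood test. With no siCtl replicate 2, the block takes siUpf1 replicate 2 out of the contrast and leaves fewer residual degrees of freedom. The cause of the lost calls was not tested. Deviations from the group means correlated at -0.102 (number 1) and -0.105 (number 3) over the 10963 genes compared. As siCtl has 2 libraries, its deviations for a gene mirror each other, so the 2 correlations are not independent. They cannot settle whether the numbers mark paired cultures, and siCtl has no replicate 2. Removal of the length and GC trend moved Nat9 to 0.01. With a library left out, the log2 fold change was -0.11 to 0.01 for Nat9, -0.37 to -0.27 for 1810032O08Rik and 0.12 to 0.19 for Carm1, 1 to 2 reporters were called lower and 2 to 3 higher. Without a siCtl library the remaining 1 is assumed to vary like the siUpf1 libraries. The median log2 fold change over all genes stayed within 0.021 of 0 in each setting. Depth limits Nat9 and 1810032O08Rik most, with 361 to 612 raw reads per library.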
